A study of Rattus norvegicus with 4 samples.

Results

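The genes described here encode the mitochondrial fatty acid oxidation machinery of the liver, from the activation of fatty acids and their import into mitochondria to the enzymes of the beta-oxidation spiral and the regulators beside it. They were a list of 40 rat genes chosen by symbol, of which 36 could be read from a probe set of their own, among 14506 genes measured in all. Slc22a5, Acsm1 and Acsm2 share probe sets with other symbols and Acad8 was not listed in the array annotation, so these 4 are not reported. Liver RNA came from male WNIN/Ob rats, a strain that holds a lean and an obese phenotype, aged 4 months, untreated and with free access to stock diet. The lean pool held RNA of 4 lean animals and the obese pool that of 4 obese animals, and each was hybridised to 2 Affymetrix Rat Gene ST arrays, called original and technical replicate. The labels give no genotype at the obesity locus, feeding state or time of day of the animals.

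Mitochondrial beta-oxidation shortens fatty acids to acetyl-CoA and hands the electrons to the respiratory chain. Long chains are first joined to coenzyme A, then carried across the inner membrane as carnitine esters, and the entry step is inhibited by malonyl-CoA, the product of acetyl-CoA carboxylase. In the liver the pathway feeds ketone body synthesis and supplies energy for glucose production during fasting, and many of its genes are targets of the nuclear receptor PPARA.

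Each phenotype was measured as 1 pool, so its arrays repeat the measurement and not the animals, and nothing could be tested across rats. Values are log2 intensities with the original array given first, a difference is obese minus lean, and the range beside a fold spans the 4 pairings of a lean with an obese array, which shows measurement error only. A gene was counted as higher or lower when the pools differed by a factor of 1.5, their closest arrays were separated by 0.25 or more and the higher pool reached the level filter, the median of all genes (5.48). In bulk liver RNA, fewer cells of a type and less RNA per cell cannot be told apart. The SD over all genes of the difference between the arrays of a pool was 0.20 for lean and 0.27 for obese. Hepatocyte markers were bright in both pools, with 0 of 10 past the rule and a median difference of 0.09. The 10 measured skeletal muscle markers, of 12 listed, were all lower in the obese pool, and their summed linear intensity was 30713 and 31796 on the lean arrays against 392 and 402 on the obese arrays. Adipocyte markers summed to 455 to 479 on the lean and 592 to 620 on the obese arrays, a sum dominated by Cidec (difference of 0.53), which hepatocytes can express too. The other 5 of the 6 lay below the level filter in both pools. Their differences were -0.36 for Adipoq, -0.43 for Lep, -0.29 for Plin1, 0.14 for Retn and 0.17 for Ucp1. The median of the list of 6 was -0.07. Summed macrophage markers were at 1739 to 1781 on the lean and 1348 to 1640 on the obese arrays. Endothelial markers, of which 4 of 5 were measured, were at 868 to 874 and 691 to 774. Lymphocyte markers were at 73.3 to 87.4 and 63.9 to 72.4. The 3 lymphocyte markers measured, of 4 listed, all lay below the level filter in both pools. Stellate cell markers summed to 916 to 927 and 484 to 598, and 2 of the 5, Dcn (-1.90) and Col1a1 (-0.97), were lower by the rule. Lrat (-0.34) was lower without overlap but short of the rule, while Reln (-0.03) and Pdgfrb (0.11) differed little. The part of these other tissues and cells in the results below was not tested.

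Most enzymes of the pathway stood slightly higher in the obese pool, while the genes that differed by a larger factor were few and lay outside the spiral itself. Of the 36 genes, 2 were higher by the 1.5-fold rule, the kinase gene Pdk1 and the acyl-CoA synthetase gene Acsl5, where 2.19% of all genes were called higher. Lower were 4 genes, the medium-chain synthetase Acsm3, the uncoupling carriers Ucp3 and Ucp2 and the kinase Pdk4, where 2.43% of all genes were called lower. The remaining 30 passed neither rule, and 35 of the 36 passed the level filter. Only the 7555 genes at or above the level filter could be called, and of these 317 were higher and 352 lower. The percentages of all genes given here also count genes that could not be called. They are therefore too low as a background for the members, nearly all of which could be called. By the stricter rule of a factor of 2 and a gap of 0.5, 1 gene was higher (Pdk1; 0.572% of all genes) and Acsm3 and Ucp3 were lower (1.48% of all genes). The difference of Pdk1 was below a factor of 2 with an offset of 16 on the linear scale (0.97), with cyclic loess (0.92), on the technical replicate arrays alone (0.87) and without the lean original (0.92) or the obese original array (0.96), and that of Ucp3 was -0.90 with the offset. Centring each array on its median gave 4 higher and 4 lower genes, adding Acsm5 and Eci1, and leaving out the obese technical replicate array also gave 4 higher genes, adding Acsl3 and Acsm5. Among all genes the rule called 317 higher and 352 lower, or 227 and 400 after cyclic loess and 386 and 326 after median centring. Without the obese technical replicate array it called 553 higher and 335 lower, so the calls over all genes rose as well.

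The median difference of the 36 genes was 0.21, against 0.03 over all genes and 0.08 over the 7555 genes at or above the level filter. Differences lay above 0 for 28 genes (56.9% of all genes and 63.6% of those at the level filter). Both obese arrays lay above both lean arrays for 24 genes, or 66.7% of the members, where 27.5% of all genes and 38.5% of genes at the level filter did so. The opposite order was seen for 8 genes, or 22.2%, where 18.5% and 19.6% did so. The arrays overlapped for 4 genes, Acadm, Acadvl, Hsd17b10 and Mlycd. The size of the median rested on the scaling between arrays, as cyclic loess brought it to 0.13 with 23 genes above 0. The median over all genes moved with it, to 0.002. The obese technical replicate array read below the obese original array for 28 of the 36 genes, and the median of technical replicate minus original over the 36 was -0.08. The same count over all genes was not made, so this is not shown to be particular to the members. The upper quartile of all genes was 7.21 on the obese original and 7.04 on the obese technical replicate array. On the lean arrays it was 7.07 and 7.08.

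**Figure D1:**
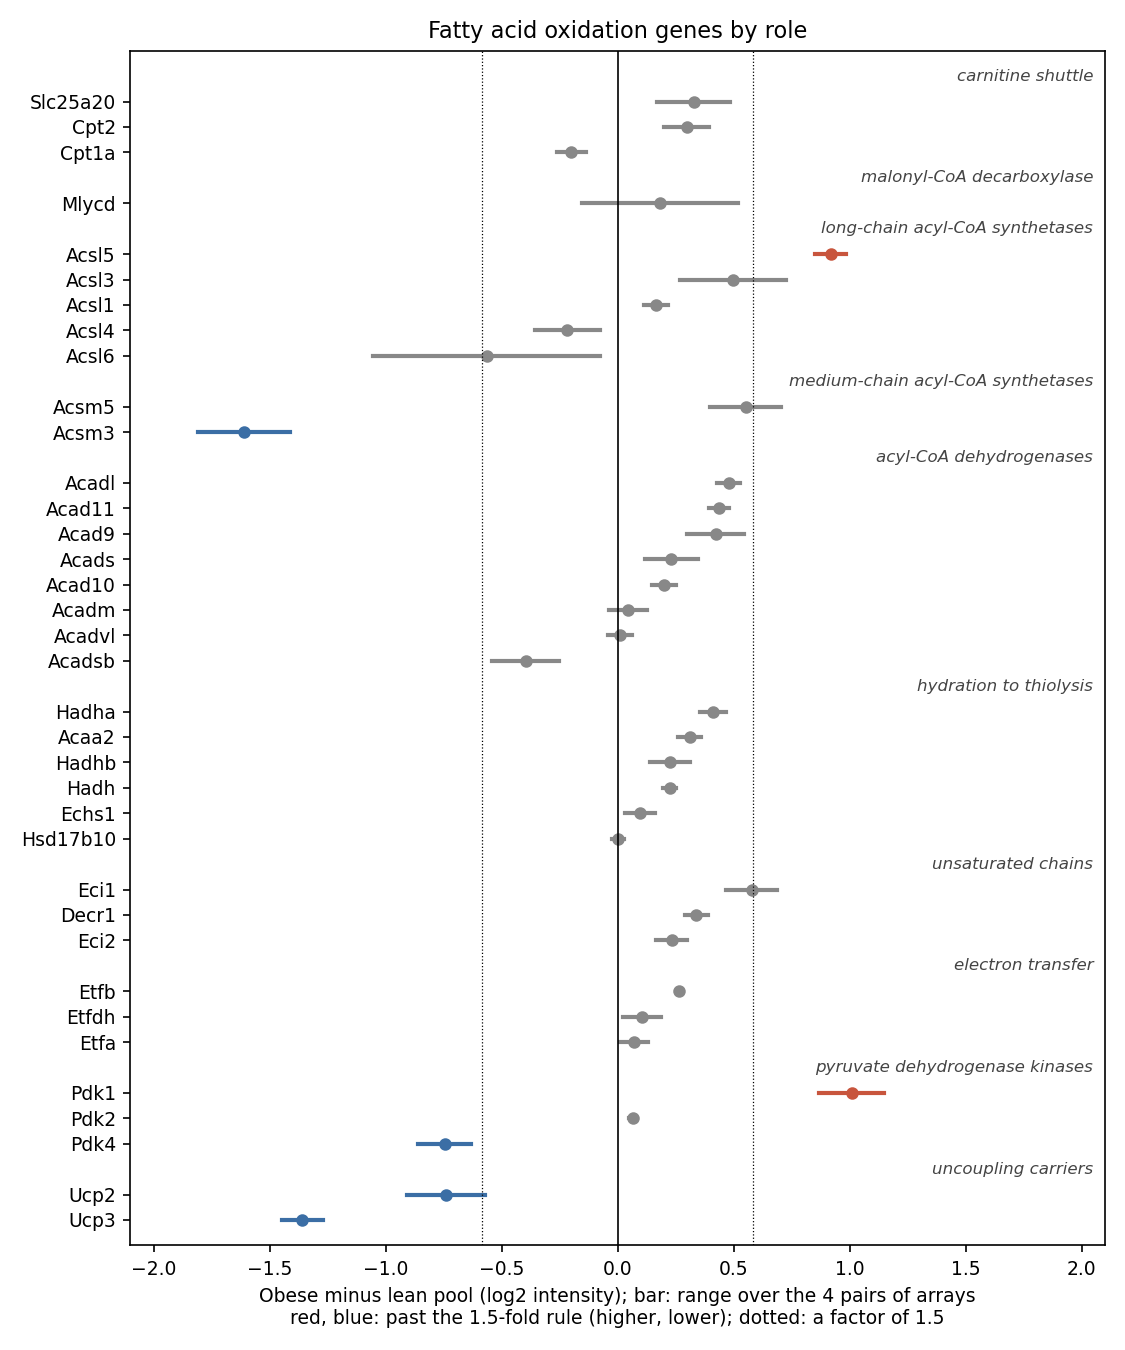
Difference between the obese and the lean pool in log2 intensity for the 36 measured genes, grouped by role, with the point at the difference of the pool means and the bar over the 4 pairs of arrays. Pdk1 (1.01) and Acsl5 (0.92) lie to the right of the dotted line at a factor of 1.5, Acsm3 (-1.61), Ucp3 (-1.36), Pdk4 (-0.75) and Ucp2 (-0.74) to the left, and most enzymes between 0 and 0.58.

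**Figure D2:**
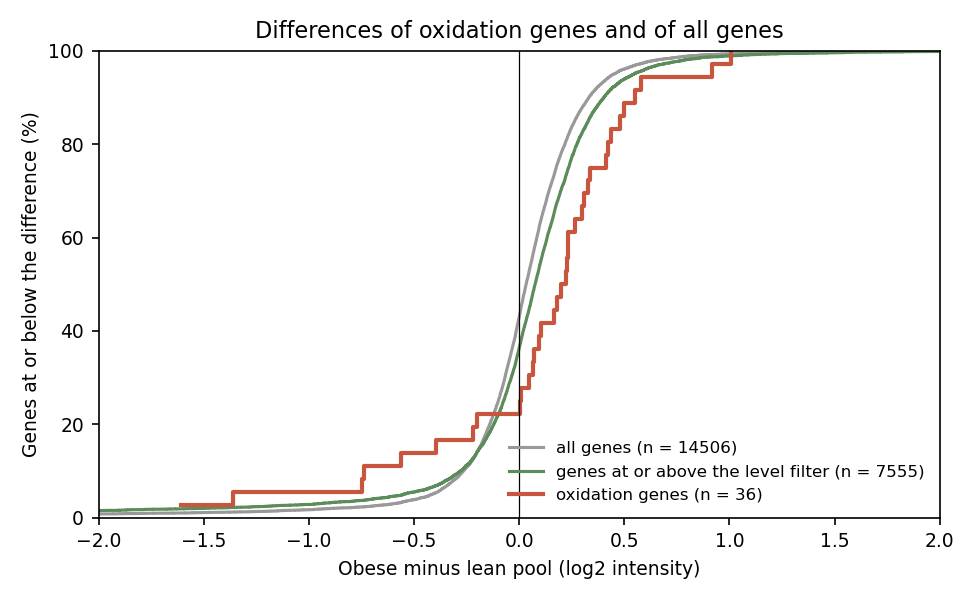
Cumulative share of genes, in percent, at or below each difference in log2 intensity for all 14506 genes, the 7555 genes at or above the level filter and the 36 oxidation genes. The curve of the oxidation genes crosses its middle at 0.21, to the right of the others, and its lower end holds the 8 genes below 0.

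The stretches of genome in front of the 6 genes past the rule are shown because these are the genes the comparison turns on, and the stretch between Hadha and Hadhb because both subunits of the trifunctional protein are read outwards from it. They are RefSeq sequences of build GRCr8, written 5′ to 3′ on the strand of the named gene (Hadha for the shared stretch). Each 100-base stretch ends at the base before the annotated gene. Capitals mark the GC box GGGCGG and the CCAAT box on either strand.
Pdk1, chr3:77113364-77113463, plus strand: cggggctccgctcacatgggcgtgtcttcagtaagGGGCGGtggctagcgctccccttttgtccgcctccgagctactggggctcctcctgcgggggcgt
Acsl5, chr1:264294751-264294850, plus strand: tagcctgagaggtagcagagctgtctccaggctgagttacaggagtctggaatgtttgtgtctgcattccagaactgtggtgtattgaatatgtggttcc
Acsm3, chr1:183564552-183564651, plus strand: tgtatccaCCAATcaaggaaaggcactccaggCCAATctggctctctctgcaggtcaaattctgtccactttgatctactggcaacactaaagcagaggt
Ucp3, chr1:164227810-164227909, plus strand: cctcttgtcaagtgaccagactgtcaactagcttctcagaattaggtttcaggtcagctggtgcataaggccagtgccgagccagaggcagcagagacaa
Ucp2, chr1:164251273-164251372, plus strand: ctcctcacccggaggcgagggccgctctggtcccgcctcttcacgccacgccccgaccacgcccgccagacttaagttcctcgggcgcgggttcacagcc
Pdk4, chr4:34568330-34568429, minus strand: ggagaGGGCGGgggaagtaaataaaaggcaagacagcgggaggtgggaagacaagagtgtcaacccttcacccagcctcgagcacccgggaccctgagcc
Hadha-Hadhb, chr6:31907558-31907800, plus strand: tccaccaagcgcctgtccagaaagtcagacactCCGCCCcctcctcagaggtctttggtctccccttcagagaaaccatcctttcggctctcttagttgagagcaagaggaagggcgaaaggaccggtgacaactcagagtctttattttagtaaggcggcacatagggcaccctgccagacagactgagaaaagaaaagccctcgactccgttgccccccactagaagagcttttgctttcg

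In these stretches Pdk1 and Pdk4, which differed in opposite directions, each hold 1 GC box, as does the stretch between Hadha and Hadhb. Acsm3 holds 2 CCAAT boxes, and Acsl5, Ucp2 and Ucp3 hold neither. GC content was 72.0% before Ucp2 and 52.0% before Ucp3, which lie next to each other on the chromosome. Over windows of 300 bases, from 250 before to 50 after each start, which were given for 37 of the 40 genes, a GC box was found in 23, or 62.2%, against 33.1% of all 33469 windows, which count some genes more than once. A CCAAT box was found in 14, or 37.8%, against 37.5%, and the TATA box TATAAA in 3, Acad11, Acsl5 and Echs1, or 8.11%, against 14.2%. A direct repeat of the kind bound by PPARA, searched on both strands as AGGNCA repeated after a gap of 1 base, was found in 0 of the 37 and in 0.415% of all windows. A match is a string of letters only, and its absence speaks for this window alone.

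Activation and import of long chains showed a higher synthetase and little difference at the entry step. Acsl5, a long-chain acyl-CoA synthetase found on mitochondria and the endoplasmic reticulum, read 10.32 and 10.31 on the lean arrays and 11.29 and 11.17 on the obese arrays. Both obese arrays lay above both lean arrays by at least 0.85, and the fold was 1.89 (1.80 to 1.98). Acsl3, a synthetase tied to lipid droplets, read 6.08 and 6.16 on the lean and 6.81 and 6.43 on the obese arrays, 1.41-fold higher (1.21 to 1.65). Acsl1, the main synthetase of oxidative tissues, stood at 11.98 ± 0.01 for lean and 12.15 ± 0.06 for obese (SD of 2 arrays), a fold of 1.12 (1.08 to 1.16). Acsl4, which prefers arachidonate, had a difference of -0.22 (9.72 ± 0.02 and 9.50 ± 0.17). Acsl6, best known from brain and muscle, was below the level filter in both pools (4.94 ± 0.23 and 4.38 ± 0.46), so its difference of -0.56 has no firm size.

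Cpt1a, the liver form of the enzyme that makes acylcarnitine and is inhibited by malonyl-CoA, read 10.08 and 10.09 on the lean arrays and 9.94 and 9.83 on the obese arrays. Its arrays did not overlap, and the obese pool was 1.15-fold lower (1.10 to 1.20), short of the rule. Cpt2, which returns the chain to coenzyme A inside the mitochondrion, read 8.38 and 8.22 on the lean and 8.58 and 8.62 on the obese arrays, a fold of 1.23 (1.15 to 1.31). The carnitine-acylcarnitine carrier Slc25a20 read 9.37 and 9.43 against 9.85 and 9.60, a fold of 1.26 (1.13 to 1.40). Cpt1a was thus the lower and both later steps the higher genes of the shuttle, each by less than the 1.5-fold rule. Mlycd, which removes malonyl-CoA, read 6.61 and 6.97 on the lean arrays and 6.82 and 7.13 on the obese arrays. Its lean arrays lay further apart than those of any other member, by 0.36, and the pools overlapped.

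Among the medium-chain synthetases, which activate shorter acids inside the mitochondrion, the measured genes differed in opposite directions. Acsm3 read 9.64 and 9.68 on the lean arrays and 8.23 and 7.87 on the obese arrays, the largest difference of the 36 genes in either direction. The obese pool was lower by 3.05-fold (2.67 to 3.50), with the nearest arrays 1.41 apart. Acsm5 read 7.17 and 7.05 on the lean arrays and 7.75 and 7.57 on the obese arrays, 1.47-fold higher (1.32 to 1.63), just short of the rule. In the RefSeq annotation of chromosome 1, Acsm5 is followed by Acsm2, RGD1559600 and Acsm1, and Acsm3 is preceded by Acsm4, Thumpd1 and Eri2. Acsm4 was below the level filter, at 4.07 and 4.11. The annotated span of Eri2 contains that of Acsm3, and Eri2 had no probe set of its own here.

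**Figure D3:**
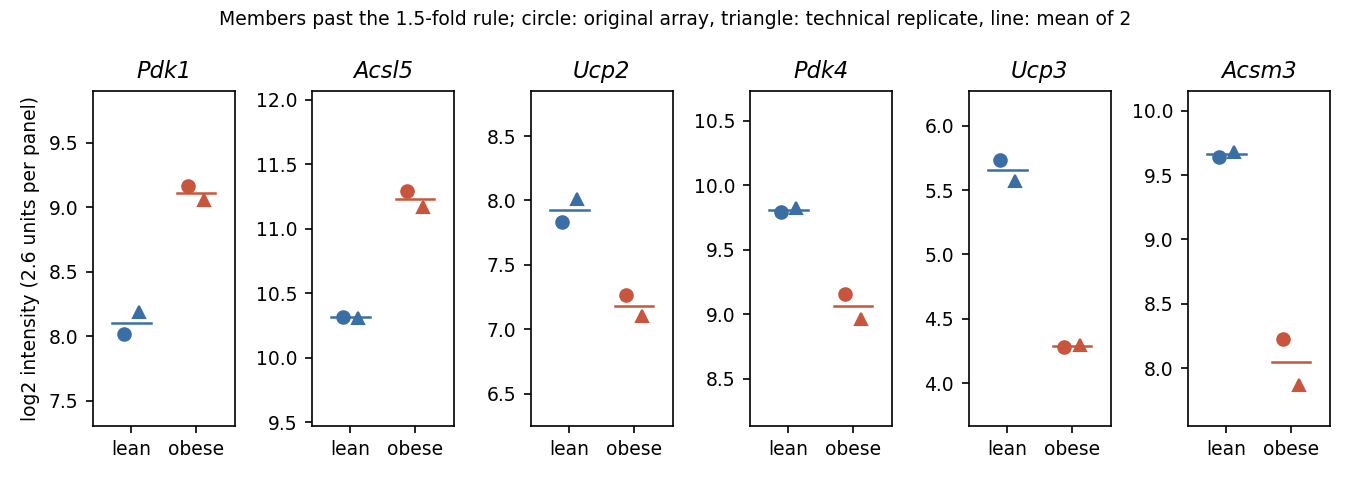
Log2 intensity on each array for the 6 genes past the 1.5-fold rule, 1 panel per gene, each spanning 2.6 log2 units, with circles for original arrays, triangles for technical replicates and lines at the mean of the 2 arrays. Pdk1 and Acsl5 sit higher on both obese arrays, Ucp2, Pdk4, Ucp3 and Acsm3 lower, and the nearest arrays of the pools are at least 0.57 apart in every panel.

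The acyl-CoA dehydrogenases, which carry out the first oxidation of each turn, differed among themselves, and 0 of 8 passed the rule in either direction. The long-chain enzyme gene Acadl read 9.96 on both lean arrays and 10.49 and 10.39 on the obese arrays, 1.39-fold higher (1.35 to 1.44). The very-long-chain enzyme gene Acadvl did not separate the pools, at 9.96 ± 0.04 and 9.97 ± 0.04, nor did the medium-chain gene Acadm, at 11.38 ± 0.03 and 11.42 ± 0.08, and the differences of both took either sign with the scaling. Acads, for short chains, was 1.17-fold higher (1.08 to 1.27), at 8.17 ± 0.04 and 8.40 ± 0.12. Acad9, which also helps assemble respiratory complex I, read 8.01 and 7.94 against 8.49 and 8.31, a fold of 1.34 (1.23 to 1.46). Acad11 read 5.67 and 5.68 against 6.15 and 6.08, a fold of 1.35 (1.31 to 1.39), close above the level filter, and Acad10 stood at 7.97 ± 0.03 and 8.17 ± 0.05. Both are less studied members of the family. Acadsb, which oxidises branched short chains from isoleucine, was the single dehydrogenase below 0, reading 10.11 and 10.05 on the lean arrays and 9.80 and 9.58 on the obese arrays, 1.32-fold lower (1.19 to 1.45).

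The enzymes that follow the first oxidation all had differences above 0, except that Hsd17b10 lay on either side of 0 depending on the scaling. Hadha and Hadhb encode the subunits of the trifunctional protein, which hydrates, oxidises and cleaves long chains. Hadha read 10.44 and 10.48 on the lean and 10.91 and 10.83 on the obese arrays, 1.33-fold higher (1.28 to 1.38), and its other probe set gave a difference of 0.32. Hadhb, read outwards from the other end of the stretch printed above, stood at 9.12 ± 0.02 and 9.34 ± 0.10, 1.17-fold higher (1.10 to 1.24). For both subunits the obese arrays lay above the lean arrays, with differences of 0.41 for Hadha and 0.23 for Hadhb. Acaa2, the thiolase of shorter chains, read 11.11 and 11.02 against 11.37 and 11.38, a fold of 1.24 (1.20 to 1.28). Hadh, the dehydrogenase of shorter hydroxyacyl chains, was at 11.42 ± 0.02 and 11.64 ± 0.02, and Echs1, the matching hydratase, at 10.46 ± 0.05 and 10.55 ± 0.04. Hsd17b10, a dehydrogenase with roles in isoleucine breakdown and mitochondrial RNA processing, was at 10.11 ± 0.02 and 10.11 ± 0.01.

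The auxiliary enzymes for unsaturated fatty acids had the largest median of the enzyme groups of the spiral, 0.34 over 3 genes, as against 0.23 for the 6 genes from hydration to thiolysis and 0.22 for the 8 dehydrogenases. Eci1, an isomerase that moves double bonds into place, read 8.09 and 8.14 on the lean and 8.60 and 8.78 on the obese arrays. Its fold of 1.49 (1.38 to 1.61) fell just short of the rule. The reductase Decr1 read 9.07 and 9.04 against 9.43 and 9.36, a fold of 1.26 (1.22 to 1.31), and Eci2, an isomerase of mitochondria and peroxisomes, stood at 9.36 ± 0.06 and 9.60 ± 0.04. All 3 had both obese arrays above both lean arrays, as did the 3 genes of electron transfer described next. The same order was seen for 27.5% of all genes and 38.5% of genes at the level filter.

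Electron transfer from the dehydrogenases to ubiquinone uses the flavoprotein subunits Etfa and Etfb and the oxidoreductase Etfdh. Etfb read 9.43 and 9.44 on the lean arrays and 9.71 and 9.69 on the obese arrays, 1.20-fold higher (1.19 to 1.21). Etfa and Etfdh differed by 0.07 and 0.11 (9.92 ± 0.01 and 9.99 ± 0.08, and 10.17 ± 0.00 and 10.28 ± 0.11), and with cyclic loess the difference of Etfa was -0.01. The subunits of the flavoprotein thus had differences of 0.26 (Etfb) and 0.07 (Etfa).

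Pyruvate dehydrogenase kinases switch off the entry of pyruvate into the citric acid cycle and so shift fuel use towards fatty acids, and here the isoforms differed in opposite directions. Pdk1 read 8.01 and 8.19 on the lean arrays and 9.16 and 9.06 on the obese arrays, 2.01-fold higher (1.83 to 2.22). Pdk4, the isoform induced by fasting and by PPARA ligands, read 9.79 and 9.82 on the lean arrays and 9.16 and 8.96 on the obese arrays, 1.68-fold lower (1.55 to 1.82). Pdk2 stood at 9.61 ± 0.00 and 9.68 ± 0.02, a fold of 1.05 (1.03 to 1.06) whose sign turned with cyclic loess (-0.02). Skeletal muscle also expresses Pdk4, and the summed muscle markers given above were lower in the obese pool, but their part in the value of Pdk4 was not tested.

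The uncoupling carriers, relatives of the proton carrier of brown fat, were both lower in the obese pool. Ucp2, which is widely expressed and in the liver is found in macrophages as well as hepatocytes, read 7.84 and 8.01 on the lean arrays and 7.26 and 7.10 on the obese arrays, 1.67-fold lower (1.49 to 1.87). On the original arrays alone Ucp2 did not reach the rule, at a difference of -0.57. The 6 macrophage markers measured had a median difference of -0.25, with 0 past the rule, and their part in the value of Ucp2 was not tested. Ucp3, a carrier mainly of skeletal muscle, read 5.73 and 5.57 on the lean arrays and 4.28 and 4.30 on the obese arrays. In the obese pool this is under the level filter and no measure of background was used, so no firm fold is given. The 10 muscle markers had a median difference of -6.28, and their part in the value of Ucp3 was not tested.

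Other genes that feed or control the pathway were described from a list of 28, of which 24 were measured and 19 passed the level filter. By the 1.5-fold rule 2 were higher, 3 lower and 19 neither, with a median difference of -0.01. Both acetyl-CoA carboxylases, which make the malonyl-CoA that restrains Cpt1a, were the higher genes. Acaca, the cytosolic form, read 8.71 and 8.64 on the lean arrays and 10.01 and 9.80 on the obese arrays, 2.34-fold higher (2.13 to 2.58). Acacb, the form at the mitochondrial surface, read 7.07 and 7.09 against 7.73 and 7.62, 1.51-fold higher (1.44 to 1.58). It passed the rule narrowly, and on the technical replicate arrays alone its difference of 0.52 fell short of a factor of 1.5. The alternative settings were not run on this list. Of the enzymes that make malonyl-CoA, Acaca was thus higher by the rule and Acacb narrowly so, while Mlycd, which degrades it, overlapped between the pools.

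Cpt1b, the muscle form of the entry enzyme, read 6.94 and 6.95 on the lean arrays and 3.69 and 4.30 on the obese arrays, where Cpt1a differed by -0.20. Crat, a carnitine acetyltransferase abundant in muscle, read 7.73 and 7.76 against 5.84 and 5.96, 3.59-fold lower (3.41 to 3.79). The coactivator Ppargc1a read 5.65 and 5.59 against 4.60 and 3.89. The obese levels of Cpt1b and Ppargc1a lay below the level filter, so no firm fold is given for them. All 3 are genes that muscle expresses, and the muscle markers were lower in the same pool, but the part of muscle in these values was not tested. Ppara itself read 8.94 and 8.96 on the lean arrays and 8.66 and 8.61 on the obese arrays, 1.24-fold lower (1.21 to 1.28), short of the rule but with no overlap. Enzymes of the list that were higher by less than the rule included Ech1, another isomerase of unsaturated chains, at 1.39-fold (1.31 to 1.48), Acsf2, an acyl-CoA synthetase, 1.35-fold (1.28 to 1.43) and the thioesterase Acot2 1.44-fold (1.24 to 1.67). Ivd and Gcdh, dehydrogenases of amino acid breakdown, had differences of -0.06 and -0.08.

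**Figure D4:**
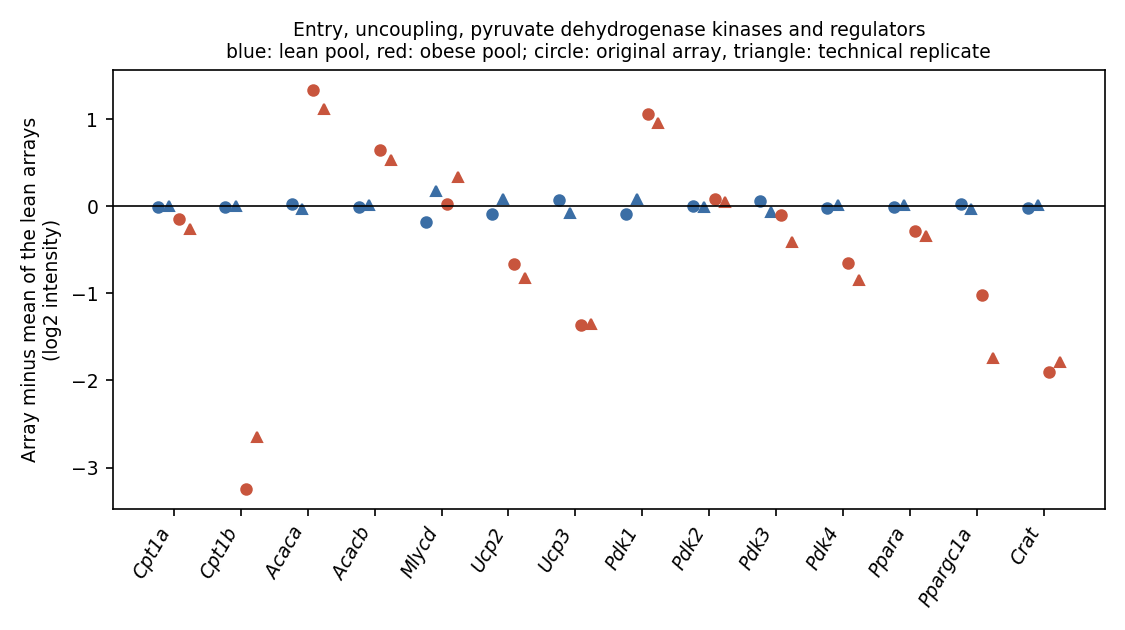
Log2 intensity of each array minus the mean of the lean arrays, for genes of entry, uncoupling, pyruvate dehydrogenase kinases and regulators, with blue for the lean and red for the obese pool. Cpt1b, Crat, Ppargc1a and Ucp3 lie more than 1 log2 unit below the lean mean on both obese arrays, Acaca lies above it by more than 1, and Cpt1a, Pdk2 and Mlycd lie within 0.5 of it.

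Without 4 members set apart by choice for their use in muscle (Ucp3, Pdk4, Acsl6 and Acadl), the median difference of the others was 0.23. Other members may be expressed in muscle too, so this is not a value free of muscle RNA. Ucp3, Pdk4 and Acsl6 lay below the median of all members and Acadl above it, so leaving them out could only raise it. The part of muscle RNA in the other members was not tested. Calls are made gene by gene, so those of the other members are not altered by leaving these out.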

How the data were processed

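The authors' deposited values are intensities per probe set on a linear scale, made with RMA per the submitters' processing notes; version, genome build and the step back from log2 are not given in the sources used here. RMA pulls in very dim and very bright values, so their folds understate differences. Values were converted to log2 here, without further normalisation. Of 29214 probe sets, 15310 carried 1 gene symbol, 323 several and 13581 none; the probe set with the highest mean was used for each of 14506 genes. Each pool is 1 sample on 2 arrays, so variation between animals was not measured and no test was made.

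Members, roles, lists, call rules and alternatives were chosen with earlier results of these data known. Every measured member is named, with values of each array past a factor of 1.2 and a gap of 0.25 and for Cpt1a, Cpt2, Slc25a20 and Mlycd. Other pathway genes short of the rule were named after their values were seen. The calling step was tested on simulated data. Alternatives were an offset of 16, cyclic loess (limma 3.58.1), median centring, other level filters, gaps and folds, averaged probe sets and arrays left out. Promoter sequences are RefSeq's (GRCr8); from its gene table only neighbours and overlaps were read.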

Additional observations from a re-analysis of the deposited data

How the results depend on the processing

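Pdk1 was called higher and Acsm3 lower under every setting tried, and Acsl5 was called higher under all but a factor of 2. Cyclic loess brought the median difference of the 36 genes to 0.13, with 0.002 over all genes. Median centring brought it to 0.26, with 0.08 over all genes. On the technical replicate arrays alone the median of the 36 was 0.16, and with single arrays left out 0.18 to 0.22. The count of higher genes was 4 with median centring, 9 with a factor of 1.3, 1 with a factor of 2, and 3 to 4 with single arrays left out. The count of lower genes was 2 with a factor of 2. It was also 2 without Ucp3, Pdk4, Acsl6 and Acadl, since that setting removes Pdk4 and Ucp3. Over all genes, 386 were higher and 326 lower with median centring, and 195 higher and 188 lower with the level filter at the upper quartile. With a factor of 1.3, 684 were higher, and with a factor of 2, 83 were higher and 215 lower. The original arrays alone gave 615 higher genes, and leaving out single arrays gave 258 to 553; the cause was not tested. Of the 36 differences, 31 kept their sign over the 11 settings that can change it and 5 did not, which were Acadm, Acadvl, Etfa, Hsd17b10 and Pdk2. No paired analysis was possible because each phenotype is a single pool. Dim genes such as Ucp3 and Acsl6 are limited by their signal over background.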
